A study of Mus musculus with 12 samples.

Results

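The interferon-stimulated genes described here are 39 genes taken by name from the deposited expression table, and all 39 had a row among its 34745 genes. They were measured in RNA of total femoral bone marrow from ICR mice, an outbred strain, from 3 male mice per group. Mice of the normal group were given saline alone. The model group received cyclophosphamide, an alkylating drug that kills dividing marrow cells, at 80 mg/kg/day on days 5 to 7 together with the saline vehicle. The QJSB group had identical cyclophosphamide dosing plus Qi-Jing-Sheng-Bai granule, a Chinese herbal formula, at 3 g/kg/day, and the leucogen group had it with leucogen, a drug given against low leucocyte counts, at 20 mg/kg/day. Cyclophosphamide was therefore given to all 9 mice outside the normal group, and no group received a drug without it. The paper gave both drugs orally for a week, so their dosing began before cyclophosphamide. The age of the mice is not given in the sources used here. The table heads its columns Blank, Model, Positive and Stilbene. Blank was read as normal and Positive as leucogen by the meaning of the words, and Stilbene as QJSB by elimination, so every statement on QJSB and leucogen rests on that reading.

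Interferons are secreted proteins that warn cells of viral infection. Type I interferons signal through the receptor chains Ifnar1 and Ifnar2 and the kinases Jak1 and Tyk2 to a complex that includes Stat2 and Irf9 and binds the interferon-stimulated response element in the promoters of its target genes. Interferon gamma signals through the receptor chains Ifngr1 and Ifngr2, and many of its target genes carry the gamma activated site. The targets encode sensors of foreign nucleic acid, enzymes that degrade or block viral RNA, and regulators that strengthen or end the response. In marrow, interferons are also known to wake blood stem cells from rest, and plasmacytoid dendritic cells, which carry Siglech, are a strong source of type I interferon.

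The promoters of 3 genes are shown first, to let the letters that such target promoters share be seen: those of Isg15, of Rsad2, the largest called change of the 39 in model against normal, and of Oas3, the largest in leucogen against model. Each is the 250 bases before the transcription start in the RefSeq annotation of GRCm38.p6, 5' to 3' on the strand of the gene, here the minus strand for all 3. Capitals mark the letters GAAANNGAAA, read on either strand, the core of the response element. Isg15 lies at chr4:156199424-156200818 and its stretch is chr4:156200819-156201068, Rsad2 has chr12:26456453-26456702 and Oas3 has chr5:120777660-120777909.
Isg15: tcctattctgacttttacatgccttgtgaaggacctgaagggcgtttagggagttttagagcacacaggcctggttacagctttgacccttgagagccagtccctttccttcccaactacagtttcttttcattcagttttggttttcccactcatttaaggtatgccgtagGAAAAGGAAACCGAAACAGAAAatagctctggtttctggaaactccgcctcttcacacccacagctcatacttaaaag
Rsad2: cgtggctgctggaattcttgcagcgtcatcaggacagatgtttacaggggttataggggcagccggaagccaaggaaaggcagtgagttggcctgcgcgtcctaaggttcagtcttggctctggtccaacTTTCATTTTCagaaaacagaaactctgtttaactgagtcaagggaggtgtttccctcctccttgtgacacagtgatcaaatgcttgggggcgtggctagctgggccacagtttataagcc
Oas3: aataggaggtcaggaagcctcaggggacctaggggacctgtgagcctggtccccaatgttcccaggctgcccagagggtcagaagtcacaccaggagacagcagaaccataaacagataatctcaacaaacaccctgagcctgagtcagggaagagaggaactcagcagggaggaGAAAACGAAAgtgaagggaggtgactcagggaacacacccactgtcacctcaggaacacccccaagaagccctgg

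The Isg15 stretch held 3 overlapping matches, and the Rsad2 and Oas3 stretches held 1 each. The same stretch of Irf7 held none, and it is not printed because 57 of its bases lie inside the gene model, where the Oas3 stretch shares 2. In the RefSeq table of promoters, which gives 300 bases around each start, 30 of the 39 genes had an entry, and 18 of these 30 (60%) held GAAANNGAAA against 3.99% of the 27025 genes of that table. The core of the gamma activated site, TTCNNNGAA on either strand, was in 10 of 30 (33.3%) against 9.55%. The 2 motifs share no required overlap and were counted apart. The genes with an entry were also split by the tests of model against normal marrow given next. GAAANNGAAA was present in 6 of the 6 that were higher, 5 of the 8 that were lower and 6 of the 15 tested but not called. TTCNNNGAA was present in 3 of the 6, 0 of the 8 and 7 of the 15. A match of letters describes the window and does not show a bound site. Rtp4, Zbp1, Oas2, Mx1, Parp9, Parp14, Usp18, Mx2 and Dhx58 had no entry.

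Library totals ran from 11172547 to 18545198 counts, and levels are given as CPM, counts scaled to a common library total with TMM factors, which align the bulk of genes between libraries. Compared per transcript length, as FPKM, 36 of the 39 genes reached a group mean of 1 or more, and Oas1g, Ifit3b and Oasl1 did not. Rsad2 had the highest mean FPKM of the 39 in normal marrow, at 52.3, and 0.995 in the leucogen group. A gene was called when edgeR's quasi-likelihood test gave a Benjamini-Hochberg adjusted p under 0.05 over all genes tested and the change was over 1.5-fold. The labels name biological replicates, and the p-values measure the spread between these 3 mice per group. In RNA of whole marrow, fewer cells of a type and less RNA per cell cannot be told apart.

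In model against normal marrow, 38 of the 39 genes passed the filter on low counts, 6 were higher and 9 were lower. Of all 14752 genes tested, 16.1% were higher and 19.0% lower, so 15.8% and 23.7% of the tested interferon-stimulated genes stand near the background. Where every library had to hold at least 10 counts, 36 of the 39 were tested, with 4 higher and 8 lower. Oas1g, one of the 6 higher, had at most 4 counts in a normal library and was not tested there. The share of all genes was not taken at that filter. In QJSB against normal, 4 of 37 were higher beside a background of 18.0% and 14 lower beside 19.9%. In leucogen against normal, 9 of 38 were higher beside 17.8% and 10 lower beside 19.8%. The median log2 fold change of the tested members was -0.21, -0.48 and -0.15 in these comparisons, and that of all genes was 0.02, 0.02 and -0.01. The 3 comparisons share the normal libraries. The genes thus split in both directions after cyclophosphamide, and the account that follows goes by role.

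**Figure D1:**
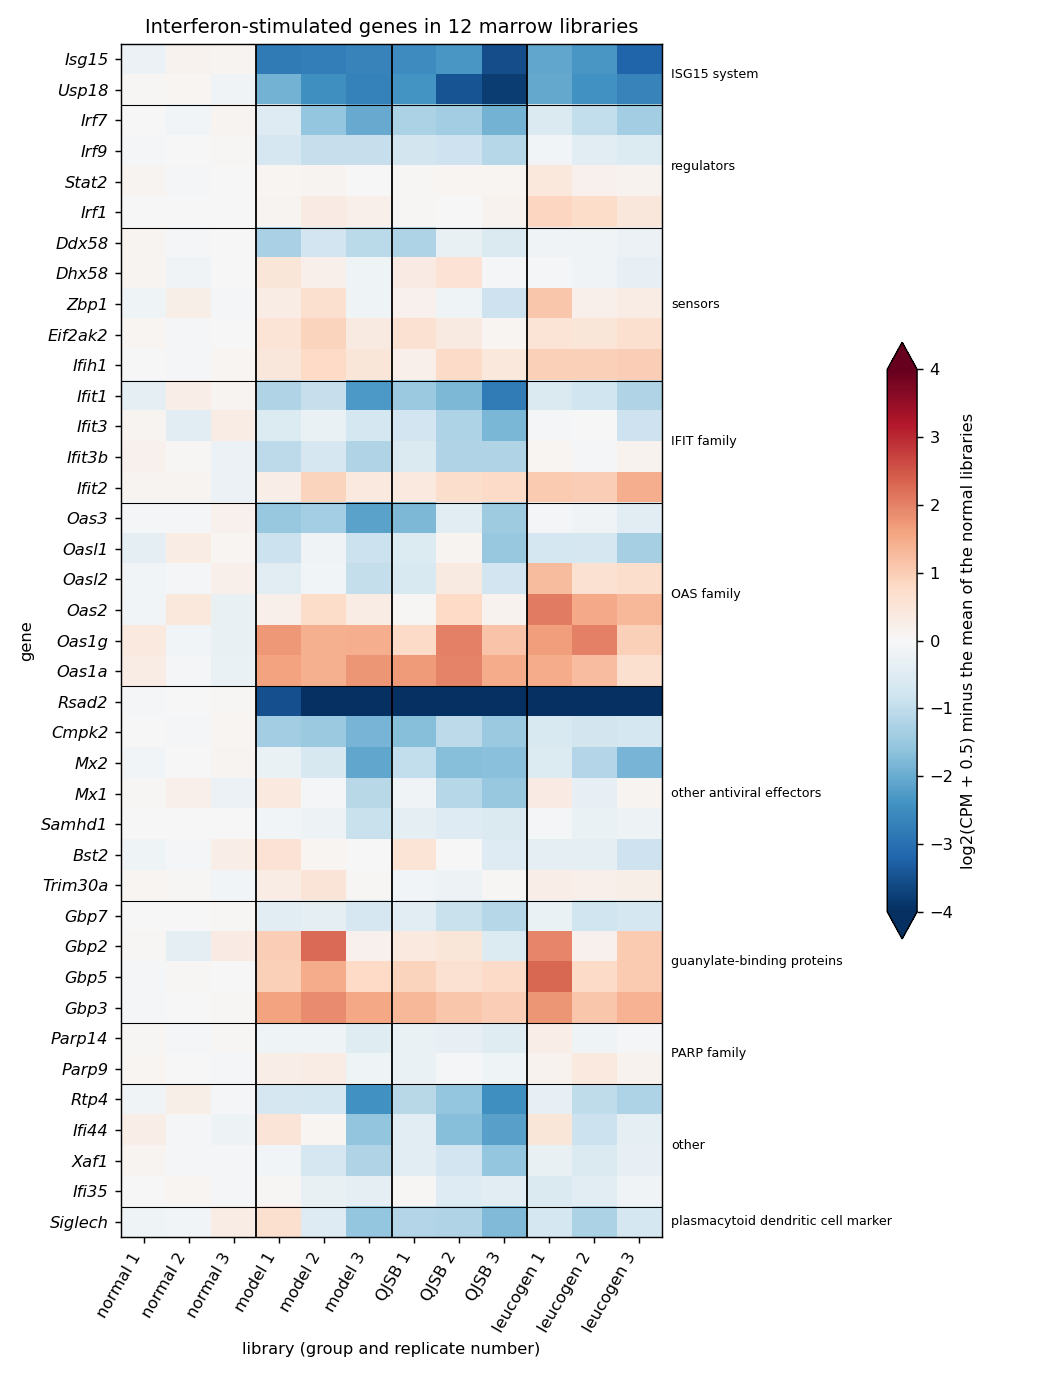
Each row is one of the 39 genes, grouped by role, and each column one of the 12 libraries; colour gives log2(CPM + 0.5) minus the mean of the 3 normal libraries, cut at -4 and 4. Rsad2, Isg15 and Usp18 are blue in all 9 cyclophosphamide libraries, Gbp3 and Oas1a are red in all 9, and Oas2 and Oasl2 are reddest in the leucogen libraries.

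The largest fall among the 39 was that of Rsad2, which encodes viperin, an enzyme that makes a nucleotide that stops viral RNA synthesis. Its level was 250.00, 256 and 269 CPM in the normal libraries and 21.9, 2.98 and 3.46 CPM in the model libraries. It was 7.14, 10.9 and 4.39 CPM in the QJSB libraries and 3.65, 8.12 and 3.46 CPM in the leucogen libraries. All 9 cyclophosphamide libraries lay far below the 3 normal ones, and model 1 was the highest of the 9. The level was 27.1-fold lower in model than in normal marrow (log2 fold change -4.76 ± 0.85 (SE), adjusted p = 0.00663), and without model 1 the change was -6.30. Against normal, it was 34.1-fold lower in the QJSB group (log2 fold change -5.09 ± 0.32 (SE), adjusted p = 2.95e-05) and 49.2-fold lower in the leucogen group (log2 fold change -5.62 ± 0.32 (SE), adjusted p = 2.61e-05).

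Cmpk2 lies beside Rsad2 on chromosome 12, on the opposite strand, with 12751 bases between the gene bodies (Rsad2 at chr12:26442753-26456452 and Cmpk2 at chr12:26469204-26479835, mm10), and encodes a mitochondrial nucleotide kinase. Its level was 45.1, 43.03 and 48.1 CPM in normal, 16.98, 15.7 and 12.01 CPM in model, 13.5, 21.7 and 16.02 CPM in QJSB and 29.3, 27.05 and 27.7 CPM in leucogen libraries. The leucogen libraries stood between the normal and the model libraries without overlap with either. Cmpk2 fell in model against normal (log2 fold change -1.60 ± 0.17 (SE), adjusted p = 1.71e-04), in QJSB against normal (log2 fold change -1.40 ± 0.18 (SE), adjusted p = 8.01e-04) and in leucogen against normal (log2 fold change -0.67 ± 0.10 (SE), adjusted p = 3.29e-04). It was higher in leucogen than in model marrow (log2 fold change 0.92 ± 0.18 (SE), adjusted p = 0.00813), whereas Rsad2 in that comparison had log2 fold change -0.89 ± 0.86 (SE), adjusted p = 0.481.

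The ISG15 system fell as a pair. Isg15 encodes a small protein that is joined to others much as ubiquitin is, and Usp18 encodes the protease that removes it and also damps signaling at the type I receptor. Isg15 had 77, 109 and 105 counts in the normal libraries and 9, 8 and 11 counts in the model libraries, or 5.58, 7.48 and 7.24 against 0.5197, 0.567 and 0.635 CPM. In QJSB libraries it had 14, 16 and 2 counts and in leucogen libraries 15, 13 and 3 counts. Every cyclophosphamide library lay under every normal one. Isg15 was 11.6-fold lower in model (log2 fold change -3.54 ± 0.29 (SE), adjusted p = 6.07e-05), 10.9-fold lower in QJSB (log2 fold change -3.45 ± 0.52 (SE), adjusted p = 0.00154) and 7.96-fold lower in leucogen (log2 fold change -2.99 ± 0.37 (SE), adjusted p = 9.79e-05) than in normal marrow. Its counts were too low to pass the filter in leucogen against model.

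Usp18 was at 11.1, 11.4 and 9.59 CPM in normal and 2.48, 1.56 and 1.21 CPM in model libraries. It was at 1.61, 0.521 and 0.305 CPM in QJSB and 2.22, 1.595 and 1.25 CPM in leucogen libraries. The normal libraries again stood apart, and the 3 treated groups overlapped one another. Against normal, Usp18 fell in model (log2 fold change -2.60 ± 0.29 (SE), adjusted p = 2.55e-04), QJSB (log2 fold change -3.67 ± 0.51 (SE), adjusted p = 0.00102) and leucogen marrow (log2 fold change -2.62 ± 0.24 (SE), adjusted p = 1.18e-05). Without QJSB 1 the change in QJSB was -4.65.

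**Figure D2:**
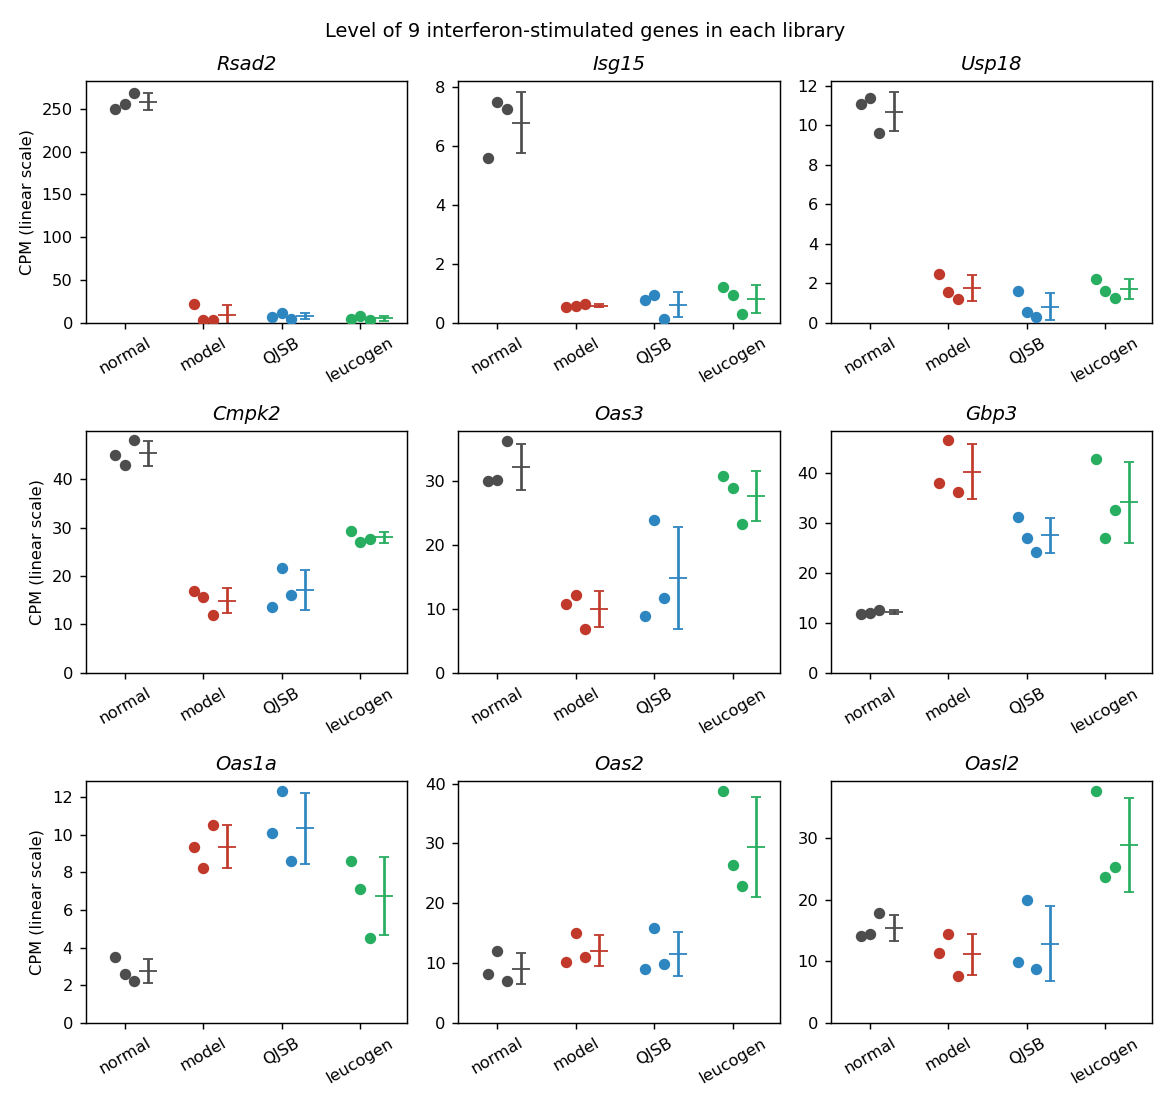
Each panel plots 1 gene, with the 3 libraries of each group as points on a linear CPM axis that starts at 0 and the mean with its SD as a bar beside them. Rsad2, Isg15 and Usp18 fell in all 3 cyclophosphamide groups, Gbp3 and Oas1a rose in all 3, and the leucogen libraries lie above the model libraries for Cmpk2, Oas3, Oas2 and Oasl2.

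Among the 4 regulators, Irf7 and Irf9 were lower in model marrow and Stat2 and Irf1 did not pass the test there. Irf7, the factor that amplifies type I interferon production, was at 15.8, 14.4 and 16.97 CPM in normal, 10.9, 5.04 and 3.46 CPM in model, 6.18, 5.67 and 3.84 CPM in QJSB and 10.3, 7.76 and 5.66 CPM in leucogen libraries. No treated library reached the lowest normal one, and model 1 and leucogen 1 came closest. Irf7 fell in model (log2 fold change -1.28 ± 0.38 (SE), adjusted p = 0.0279), QJSB (log2 fold change -1.57 ± 0.22 (SE), adjusted p = 0.00102) and leucogen against normal (log2 fold change -0.96 ± 0.21 (SE), adjusted p = 0.00348). In model against normal the call did not hold without model 2, normal 1, normal 2 or normal 3 (adjusted p from 0.0606 to 0.101), and without model 1 the change was -1.88.

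Irf9, the part of the type I complex that binds DNA, was at 59.4, 63.2 and 63.9 CPM in normal and 38.98, 32.6 and 32.8 CPM in model libraries, with no overlap. It fell in model (log2 fold change -0.83 ± 0.13 (SE), adjusted p = 0.00136) and in QJSB against normal (log2 fold change -0.89 ± 0.14 (SE), adjusted p = 0.00179). In leucogen against normal its change was -0.33 ± 0.13 (adjusted p = 0.0513), which is under the fold cutoff. Stat2, the partner of Irf9 in that complex, was called in none of the 6 comparisons, at 73.4, 65.3 and 67.7 CPM in normal, 72.99, 74.7 and 69.4 CPM in model, 70.3, 72.6 and 71.8 CPM in QJSB and 93.04, 76.9 and 75.3 CPM in leucogen libraries. Its log2 fold changes lay between -0.03 in QJSB against model and 0.27 in leucogen against normal (0.27 ± 0.11 (adjusted p = 0.0638)). Irf1, a factor that interferon gamma induces strongly, was at 34.3, 33.3 and 33.9 CPM in normal and 61.97, 56.2 and 46.2 CPM in leucogen libraries and rose in leucogen against normal (log2 fold change 0.72 ± 0.12 (SE), adjusted p = 7.22e-04).

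The 5 sensors went apart. Ddx58 encodes RIG-I, which binds viral RNA in the cytoplasm, and was at 71.04, 63.1 and 64.9 CPM in normal, 26.6, 38.4 and 31.4 CPM in model, 27.7, 54.1 and 43.9 CPM in QJSB and 60.4, 59.8 and 56.1 CPM in leucogen libraries. The model libraries were the lowest group except for QJSB 1, and the leucogen libraries lay just under the normal ones. Ddx58 fell in model against normal (log2 fold change -1.04 ± 0.16 (SE), adjusted p = 0.00133) and rose in leucogen against model (log2 fold change 0.88 ± 0.16 (SE), adjusted p = 0.00714), and in leucogen against normal it had -0.15 ± 0.09 (adjusted p = 0.194). In QJSB against normal it fell as well (log2 fold change -0.65 ± 0.23 (SE), adjusted p = 0.0473), a call that did not hold without QJSB 1, QJSB 3, normal 1, normal 2 or normal 3 (adjusted p from 0.0957 to 0.133, or under the fold cutoff at -0.43).

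Ifih1 encodes MDA5, the sensor of long double-stranded RNA, and was at 29.7, 28.3 and 31.7 CPM in normal, 40.8, 51.8 and 41.6 CPM in model and 58.00, 58.4 and 59.8 CPM in leucogen libraries. It rose in model (log2 fold change 0.59 ± 0.15 (SE), adjusted p = 0.0128) and in leucogen against normal (log2 fold change 0.99 ± 0.10 (SE), adjusted p = 1.65e-05), and in the leucogen libraries it was above all others. In model against normal it stands at the fold cutoff itself, and the call did not hold without model 2, normal 1 or normal 2 (adjusted p from 0.0529 to 0.0615, or under the fold cutoff at 0.48). It was under the cutoff also with DESeq2, DESeq2 size factors, all 12 libraries in one fit and the replicate block. The same held with at least 10 counts in every library and with limma-trend on log2(FPKM + 1) (0.54 to 0.58 over these settings). Eif2ak2, the kinase PKR that stops translation when it meets double-stranded RNA, was at 56.5, 52.2 and 52.9 CPM in normal and 79.1, 101 and 69.3 CPM in model libraries and rose in model (log2 fold change 0.63 ± 0.16 (SE), adjusted p = 0.0137), though not without model 2, normal 2 or normal 3 (adjusted p from 0.0503 to 0.0586, or under the fold cutoff at 0.48). At 79.7, 75.6 and 84.7 CPM in the leucogen libraries it rose against normal by just over the fold cutoff (log2 fold change 0.59 ± 0.09 (SE), adjusted p = 4.31e-04), and it was under that cutoff without leucogen 3, normal 2 or normal 3 (log2 fold changes 0.54, 0.57 and 0.58). It was under the cutoff also with DESeq2, DESeq2 size factors, total counts, either other count filter, all 12 libraries in one fit and every limma-trend fit (0.48 to 0.58). Dhx58, a relative of RIG-I, and Zbp1, a sensor of nucleic acids in the Z form, were called in none of the 6 comparisons.

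Of the IFIT family, Ifit1 fell in all 3 treated groups and Ifit2 rose in the QJSB and leucogen groups, against normal. Ifit1 was at 3.77, 6.25 and 5.45 CPM in normal, 1.91, 2.41 and 0.635 CPM in model, 1.504, 1.100 and 0.305 CPM in QJSB and 3.26, 2.68 and 1.92 CPM in leucogen libraries. It fell in model (log2 fold change -1.65 ± 0.45 (SE), adjusted p = 0.0191) and QJSB against normal (log2 fold change -2.37 ± 0.50 (SE), adjusted p = 0.00687), and the call in model against normal did not hold without normal 2 (adjusted p = 0.0692) or normal 3 (adjusted p = 0.0571). It fell too in leucogen against normal (log2 fold change -0.94 ± 0.29 (SE), adjusted p = 0.0187), though not without leucogen 3, normal 2 or normal 3 (adjusted p from 0.0521 to 0.0795). Ifit2 was at 35.01, 34.9 and 27.2 CPM in normal, 38.8, 59.4 and 42.7 CPM in model, 42.3, 52.4 and 55.5 CPM in QJSB and 66.98, 64.5 and 88.04 CPM in leucogen libraries. The leucogen libraries were the highest for this gene. It rose in leucogen against normal (log2 fold change 1.20 ± 0.15 (SE), adjusted p = 1.00e-04) and in QJSB against normal (log2 fold change 0.64 ± 0.16 (SE), adjusted p = 0.0135), the latter not without QJSB 3 (log2 fold change 0.57) or normal 3 (adjusted p = 0.0512).

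Ifit3 was at 2.102, 1.304 and 2.48 CPM in normal and 0.913, 0.521 and 0.183 CPM in QJSB libraries and fell there (log2 fold change -1.82 ± 0.54 (SE), adjusted p = 0.0278), a call that did not hold without QJSB 2, QJSB 3, normal 1 or normal 3 (adjusted p from 0.0566 to 0.0947), and without QJSB 1 the change was -2.43. Ifit3b had at most 11 counts in a library and passed the filter only in leucogen against normal, where it had 0.08 ± 0.42 (adjusted p = 0.887). The longest protein-coding transcripts of Ifit3 and Ifit3b are 98.0% identical over 1697 aligned bases, so reads of either may have been counted for the other and both values are uncertain.

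The OAS family, named for enzymes that make the signal that switches on the RNA-degrading RNase L, held changes in both directions. Its genes lie in 2 clusters on chromosome 5, with Oasl1 and Oasl2 apart from the rest. Oas3 was at 30.1, 30.1 and 36.4 CPM in normal, 10.8, 12.2 and 6.81 CPM in model, 8.86, 23.97 and 11.6 CPM in QJSB and 30.7, 28.9 and 23.3 CPM in leucogen libraries. The model libraries lay under all normal and leucogen libraries. QJSB 1 and QJSB 3 lay within the model range, and QJSB 2 lay within the leucogen range. Oas3 fell in model against normal (log2 fold change -1.69 ± 0.23 (SE), adjusted p = 6.76e-04) and was higher in leucogen than in model marrow (log2 fold change 1.49 ± 0.24 (SE), adjusted p = 0.00444). It fell in QJSB against normal also (log2 fold change -1.11 ± 0.34 (SE), adjusted p = 0.0323), but the call did not hold without QJSB 1, QJSB 3, normal 1, normal 2 or normal 3 (adjusted p from 0.0517 to 0.101).

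Oas2, which lies 3244 bases from Oas3 on the same strand, was at 8.12, 12.01 and 7.04 CPM in normal, 10.2, 14.97 and 11.1 CPM in model, 9.08, 15.8 and 9.87 CPM in QJSB and 38.8, 26.5 and 22.9 CPM in leucogen libraries. The 3 leucogen libraries were the highest of the 12. Oas2 rose 3.301-fold in leucogen against normal (log2 fold change 1.72 ± 0.26 (SE), adjusted p = 8.10e-04) and 2.45-fold in leucogen against model (log2 fold change 1.29 ± 0.24 (SE), adjusted p = 0.00715), and in model against normal it had 0.42 ± 0.26 (adjusted p = 0.222).

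Oasl2, an OAS-like protein that carries ubiquitin-like domains, was at 14.1, 14.4 and 17.9 CPM in normal, 11.4, 14.4 and 7.68 CPM in model, 9.94, 19.97 and 8.77 CPM in QJSB and 37.7, 23.8 and 25.3 CPM in leucogen libraries. It too was highest in the leucogen libraries, and rose there against normal (log2 fold change 0.93 ± 0.20 (SE), adjusted p = 0.00318) and against model (log2 fold change 1.39 ± 0.27 (SE), adjusted p = 0.008199). Its neighbour Oasl1, which had at most 28 counts in a library, fell in leucogen against normal (log2 fold change -1.32 ± 0.45 (SE), adjusted p = 0.0304), a call that did not hold without leucogen 3, normal 2 or normal 3 (adjusted p from 0.0776 to 0.119). Nor did it hold with DESeq2 (adjusted p = 0.0881), all 12 libraries in one edgeR fit (adjusted p = 0.118), the replicate block (adjusted p = 0.0518) or any limma-trend fit.

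Oas1a was at 3.48, 2.61 and 2.21 CPM in normal, 9.35, 8.23 and 10.5 CPM in model, 10.1, 12.3 and 8.59 CPM in QJSB and 8.58, 7.11 and 4.51 CPM in leucogen libraries. All 9 treated libraries were above all 3 normal ones. It rose in model (log2 fold change 1.76 ± 0.25 (SE), adjusted p = 7.74e-04), QJSB (log2 fold change 1.91 ± 0.25 (SE), adjusted p = 8.44e-04) and leucogen against normal (log2 fold change 1.31 ± 0.29 (SE), adjusted p = 0.00356). Oas1g had 4, 1 and 0 counts in normal and 26, 16 and 20 counts in model libraries (log2 fold change 3.35 ± 0.71 (SE), adjusted p = 0.00596), and with so few normal counts the size of this change is loose, at 4.91 on the log2 scale without normal 1. The transcripts of Oas1a and Oas1g are 97.5% identical over 1860 aligned bases, so their reads may have been exchanged.

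Of the other antiviral effectors, Mx2 fell in QJSB (log2 fold change -1.60 ± 0.31 (SE), adjusted p = 0.00447) and leucogen against normal (log2 fold change -1.21 ± 0.33 (SE), adjusted p = 0.0123). Its level was 5.73, 6.18 and 6.76 CPM in normal, 5.08, 3.76 and 1.097 CPM in model, 2.900, 1.56 and 1.58 CPM in QJSB and 4.05, 2.47 and 1.34 CPM in leucogen libraries, and all treated libraries were below the normal ones. The Mx2 call in leucogen against normal did not hold with all 12 libraries in one edgeR fit (adjusted p = 0.0654). It was under the fold cutoff by limma-trend on log2(FPKM + 1) (log2 fold change -0.57). The GENCODE M21 annotation of the reference strain types Mx2, a dynamin-like GTPase, as a polymorphic pseudogene. Its neighbour Mx1, Bst2, which tethers budding viruses to the cell, Samhd1, which depletes nucleotides, and Trim30a, a ubiquitin ligase family member, were called in none of the 6 comparisons.

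The guanylate-binding proteins, large GTPases that attack the vacuoles of intracellular microbes, rose more than they fell. Gbp3 was at 11.9, 12.01 and 12.6 CPM in normal, 38.2, 46.7 and 36.3 CPM in model, 31.3, 27.1 and 24.3 CPM in QJSB and 42.9, 26.98 and 32.7 CPM in leucogen libraries. The lowest treated library was above the highest normal one, in all 3 groups. It rose 3.33-fold in model (log2 fold change 1.73 ± 0.16 (SE), adjusted p = 9.00e-05), 2.29-fold in QJSB (log2 fold change 1.19 ± 0.15 (SE), adjusted p = 6.57e-04) and 2.85-fold in leucogen against normal (log2 fold change 1.51 ± 0.18 (SE), adjusted p = 5.90e-05).

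Gbp5 was at 12.03, 12.8 and 12.2 CPM in normal, 24.1, 35.04 and 21.7 CPM in model, 23.1, 18.9 and 21.3 CPM in QJSB and 62.6, 21.4 and 25.7 CPM in leucogen libraries. It rose in model (log2 fold change 1.13 ± 0.21 (SE), adjusted p = 0.00292), QJSB (log2 fold change 0.79 ± 0.15 (SE), adjusted p = 0.00387) and leucogen (log2 fold change 1.60 ± 0.47 (SE), adjusted p = 0.0369), and leucogen 1 stood far above the other libraries of its group. Without it the change in leucogen against normal was 0.95 on the log2 scale (adjusted p = 6.71e-04). The call in leucogen against normal did not hold without normal 1, normal 2 or normal 3 (adjusted p from 0.109 to 0.113). Gbp2 ranged from 20.1 to 87.5 CPM within the model group alone, and its change of 1.40 in model against normal missed the adjusted threshold (adjusted p = 0.0774). Gbp7 fell in QJSB against normal (log2 fold change -0.78 ± 0.19 (SE), adjusted p = 0.0116), so the 4 neighbours on chromosome 3 did not move as one.

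Rtp4, a chaperone of receptors on their way to the cell surface, was at 4.64, 6.25 and 4.898 CPM in normal and 2.15, 1.45 and 0.548 CPM in QJSB libraries and fell there (log2 fold change -1.90 ± 0.45 (SE), adjusted p = 0.0109). In model against normal it had -1.24 ± 0.52 (adjusted p = 0.08804), with 3.12, 2.98 and 0.577 CPM in the model libraries, of which model 3 was the lowest. At 4.05, 2.32 and 1.92 CPM in the leucogen libraries, Rtp4 fell against normal (log2 fold change -0.90 ± 0.30 (SE), adjusted p = 0.0309), a call that did not hold without leucogen 2, leucogen 3, normal 2 or normal 3 (adjusted p from 0.0524 to 0.1104). Parp9 and Parp14, partners in ADP-ribosylation, and Ifi44, Ifi35 and Xaf1 were called in none of the 6 comparisons.

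Siglech, the surface marker of plasmacytoid dendritic cells, was at 10.3, 10.8 and 14.3 CPM in normal, 18.5, 7.94 and 3.64 CPM in model, 4.89, 4.81 and 3.05 CPM in QJSB and 6.99, 4.57 and 6.91 CPM in leucogen libraries. The model group spread from above all normal libraries to below all of them, and the other treated groups lay under the normal range. Siglech fell in QJSB (log2 fold change -1.45 ± 0.25 (SE), adjusted p = 0.00283) and in leucogen against normal (log2 fold change -0.92 ± 0.22 (SE), adjusted p = 0.00576), and in model against normal it had -0.22 ± 0.53 (adjusted p = 0.759). Without model 1 it fell in model against normal as well (log2 fold change -1.02, adjusted p = 0.0471). The Siglech call in leucogen against normal did not hold with all 12 libraries in one edgeR fit (adjusted p = 0.125). It was under the fold cutoff by limma-trend on log2(FPKM + 1) (log2 fold change -0.49).

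QJSB against model asks what the granule adds in mice given cyclophosphamide. By edgeR, 0 of the 38 genes tested were called there, beside 0% of all 14486 genes. The log2 fold change was positive for 9 of the 38, beside 6952 of the 14486. Its median was -0.23 over the 38 and -0.02 over all genes. At an unadjusted p under 0.05 there were 4, namely Gbp2, Gbp3, Siglech and Trim30a, all with lower values in the QJSB libraries, beside 4.99% of all genes, and they are named because the count is small, after their values were seen. DESeq2 also called 0 and gave 4 at an unadjusted p under 0.05. The smallest adjusted p among the 38 was 0.767 in edgeR and 0.850 in DESeq2. Isg15 had 0.06 ± 0.65 (adjusted p = 0.986), Usp18 -1.11 ± 0.62 (adjusted p = 0.767), Irf7 -0.32 ± 0.43 (adjusted p = 0.8704) and Siglech -1.26 ± 0.54 (adjusted p = 0.767) in this comparison. By the cutoff of the study, the same fold change with an unadjusted P under 0.05, 2 of 38 passed beside 3.08% of all genes. The standard errors for Irf7, Siglech, Usp18 and Isg15, 0.43 to 0.65, are wide. Changes larger than these errors, in either direction, are not excluded.

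In leucogen against model, 6 of 36 genes tested were higher and 0 lower, beside 11.6% higher and 11.5% lower among all 14184 genes tested. The 6 were Oas3, Oasl2, Oas2, Cmpk2, Ddx58 and Ifit2, which are 3 OAS enzymes, a kinase, a sensor and an IFIT protein. Ifit2 was the weakest of these (log2 fold change 0.65 ± 0.20 (SE), adjusted p = 0.0413), and its call did not hold without leucogen 1, leucogen 2, leucogen 3, model 1 or model 3 (adjusted p from 0.0553 to 0.1697). The calls of the other 5 held whichever library was left out. With library totals as the scale instead of TMM factors, 5 were higher and 1, Bst2, was lower; that scaling moved the median of all genes from -0.05 to -0.22. Irf7 (0.30 ± 0.42 (adjusted p = 0.625)), Stat2 (0.18 ± 0.14 (adjusted p = 0.355)), Usp18 (-0.04 ± 0.40 (adjusted p = 0.946)) and Siglech (-0.70 ± 0.55 (adjusted p = 0.372)) did not pass the test. The comparison shares the model libraries with model against normal, where Oas3, Cmpk2 and Ddx58 had fallen and Oasl2, Oas2 and Ifit2 had -0.47, 0.42 and 0.54 without a call. Rsad2, Usp18 and Irf7, which had fallen too, were among those not called.

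**Figure D3:**
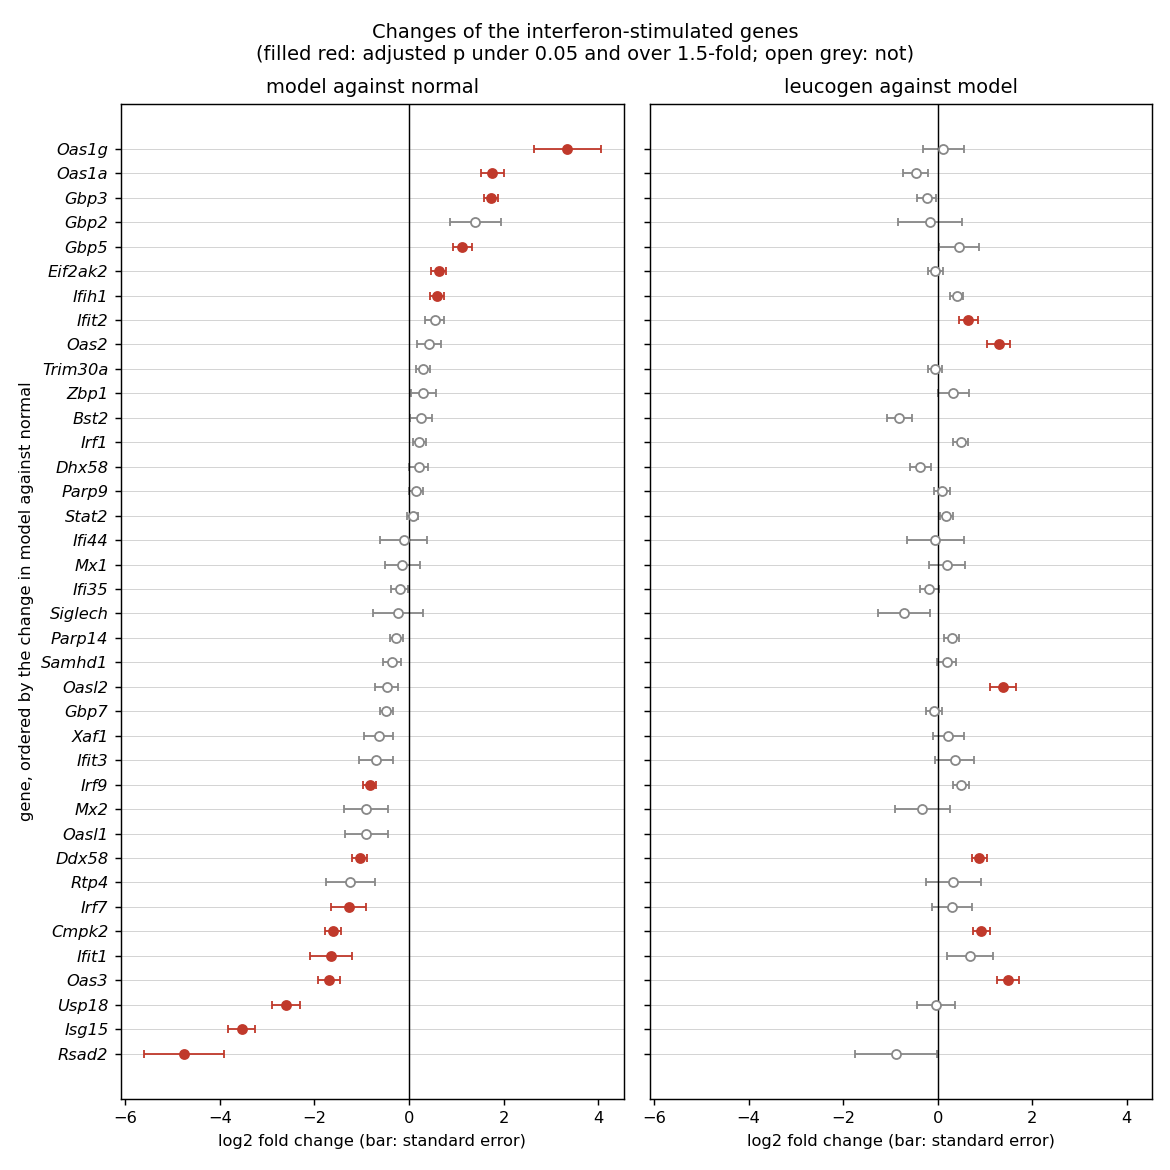
Log2 fold change with its standard error for each gene tested in model against normal (left) and in leucogen against model (right), on a shared axis; filled red points passed both cutoffs and the 2 panels share the model libraries. At left 9 genes are called lower and 6 higher, from -4.76 for Rsad2 to 3.35 for Oas1g, and at right 6 are called higher, led by Oas3 at 1.49. Oas1g had at most 4 counts in a normal library.

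Leucogen and QJSB, given at different doses, were set side by side in leucogen against QJSB. There 4 of 38 genes tested were higher in leucogen and 0 lower, beside 11.7% and 12.9% of all 14266 genes. They were Oas2 (log2 fold change 1.37 ± 0.28 (SE), adjusted p = 0.00898), Oasl2 (log2 fold change 1.19 ± 0.33 (SE), adjusted p = 0.0309), Cmpk2 (log2 fold change 0.74 ± 0.19 (SE), adjusted p = 0.0237) and Irf1 (log2 fold change 0.65 ± 0.15 (SE), adjusted p = 0.0131). Oas2 alone of these 4 was called whichever library was left out. Oasl2 was not called without QJSB 1, QJSB 3, leucogen 1 or leucogen 3 (adjusted p from 0.0738 to 0.106), Cmpk2 not without QJSB 3, leucogen 1, leucogen 2 or leucogen 3 (adjusted p from 0.0573 to 0.0827) and Irf1 not without leucogen 1 (adjusted p = 0.0618). With total counts and with every limma-trend fit Irf1 was not called either (log2 fold changes 0.50 to 0.57). Oasl2 was not called by limma-trend on log2(FPKM + 0.1) without a filter. The number called moved with single libraries, from 1 without leucogen 1 and 2 without QJSB 3 or leucogen 3 to 7 without QJSB 2 and 11 without QJSB 1. The median of the 38 log2 fold changes was 0.51, beside -0.03 for all genes. Isg15 had 0.46 ± 0.71 (adjusted p = 0.653), Usp18 1.06 ± 0.59 (adjusted p = 0.206), Irf7 0.62 ± 0.29 (adjusted p = 0.139), Stat2 0.21 ± 0.13 (adjusted p = 0.253) and Siglech 0.56 ± 0.29 (adjusted p = 0.181). Without QJSB 1, Usp18 was called higher in leucogen (log2 fold change 2.04, adjusted p = 0.0162).

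By the cutoff of the study, 17 of the 38 genes passed in model against normal beside 38.4% of all genes, 20 of 37 in QJSB against normal beside 41.6%, and 20 of 38 in leucogen against normal beside 39.4%. The same cutoff took 7 of 36 in leucogen against model beside 29.6% and 9 of 38 in leucogen against QJSB beside 30.6%.

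In each treated group 1 library was the lowest or the highest for most of the 39 genes. Model 3 was the lowest model library for 29 of the 39 genes (74.4%), while it was the lowest for 34.1% of the 13844 genes at 1 CPM or more. QJSB 3 was the lowest QJSB library for 24 of the 39 (61.5%, against 31.5%), and leucogen 1 the highest leucogen library for 28 (71.8%, against 30.4%). The summed level of the 39 genes ran from 1723 to 1757 CPM in normal, 1101 to 1570 in model, 1116 to 1246 in QJSB and 1465 to 1790 in leucogen libraries. The model and QJSB libraries were thus under every normal library in sum, and leucogen 1 was above. This order rests on Rsad2 for model 2 and for leucogen 3. Without that gene the sums were 1467 to 1491 CPM in normal and 1098 to 1567 in model. Model 2 then lay above every normal library, while model 1, at 1448, model 3 and the QJSB libraries, at 1112 to 1239, stayed below. Leucogen 3 was below every normal library with Rsad2, at 1516 CPM, and above every one without it, at 1512 CPM. The median coefficient of variation of the 39 genes within a group was 9.04% in normal, 23.3% in model, 31.7% in QJSB and 22.4% in leucogen, where that of the 13844 genes was 9.55%, 19.1%, 18.5% and 12.8%.

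The interferons themselves were almost without reads. Of the 21 ligand genes, 13 were at 0 throughout, Ifnb1 had 0 in all 12, Ifng had at most 6 in a library and none of the others more than 3. None could be tested. A level of this kind was not detectable at this depth in whole marrow, which does not show that no cell made interferon.

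Of 18 receptor and JAK-STAT genes, 17 were tested, and 4 were higher and 2 lower in model against normal, beside 16.1% and 19.0% of all genes. Ifngr1, the ligand-binding chain of the interferon gamma receptor, rose from 143 ± 4.41 to 430.12 ± 33.6 CPM (mean ± SD, n = 3; log2 fold change 1.60 ± 0.12 (SE), adjusted p = 3.91e-05), and was lower again in leucogen than in model (log2 fold change -0.82 ± 0.14 (SE), adjusted p = 0.00607). The type I receptor chains did not pass, with -0.27 ± 0.12 (adjusted p = 0.0921) for Ifnar1 and 0.39 ± 0.14 (adjusted p = 0.0573) for Ifnar2. Jak1, a kinase of both receptors, fell (log2 fold change -0.89 ± 0.12 (SE), adjusted p = 5.63e-04), and Stat3, which answers to cytokines such as G-CSF, rose (log2 fold change 0.90 ± 0.17 (SE), adjusted p = 0.00362). Socs3, a feedback inhibitor, rose (log2 fold change 1.48 ± 0.38 (SE), adjusted p = 0.0145), though not without normal 1 (adjusted p = 0.0503) or normal 2 (adjusted p = 0.0581). Ifnlr1, the receptor of type III interferon, fell in model against normal (log2 fold change -1.71 ± 0.43 (SE), adjusted p = 0.0168), not without normal 1 (adjusted p = 0.05297), and was higher in leucogen than in model (log2 fold change 2.62 ± 0.43 (SE), adjusted p = 0.00775).

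Of 20 genes of nucleic acid sensing, all tested, 5 were higher and 3 lower in model against normal, and 1 was higher and 3 lower in leucogen against model, where 11.6% and 11.5% of all genes were. The background in model against normal was again 16.1% and 19.0%. Ikbke, a kinase that activates the interferon regulatory factors, rose in model (log2 fold change 1.74 ± 0.16 (SE), adjusted p = 9.05e-05). The DNA sensor cGAS, Mb21d1, rose as well (log2 fold change 1.25 ± 0.27 (SE), adjusted p = 0.00663), and so did its partner Tmem173, or STING (log2 fold change 1.15 ± 0.17 (SE), adjusted p = 0.00114), which was lower in leucogen than in model marrow (log2 fold change -1.84 ± 0.21 (SE), adjusted p = 0.00177). Tlr9, the endosomal DNA sensor that plasmacytoid dendritic cells and B cells carry, fell in model against normal (log2 fold change -1.23 ± 0.27 (SE), adjusted p = 0.00656). It was at 16.2 ± 0.624 CPM in normal, 6.86 ± 2.71 CPM in model and 1.91 ± 0.926 CPM in leucogen marrow (mean ± SD, n = 3).

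Of 36 further interferon-stimulated genes, all tested, 8 were higher and 10 lower in model against normal, beside the same 16.1% and 19.0% of all genes. Isg20, an RNA exonuclease, fell from 136 ± 22.7 to 8.19 ± 2.42 CPM (log2 fold change -4.05 ± 0.24 (SE), adjusted p = 1.46e-05). Ddx60, a helper of RIG-I, fell too (log2 fold change -1.89 ± 0.24 (SE), adjusted p = 4.49e-04) and was higher in leucogen than in model (log2 fold change 1.85 ± 0.26 (SE), adjusted p = 0.00346). Ifitm1, Ifitm2 and Ifitm3, membrane proteins that stop viral entry and that stem cells also carry, rose in model against normal with log2 fold changes of 2.68 ± 0.43 (adjusted p = 0.00291), 2.30 ± 0.33 (adjusted p = 0.00134) and 1.73 ± 0.23 (adjusted p = 6.59e-04). In leucogen against model this list had 6 higher and 6 lower, of 36 tested, beside 11.6% and 11.5%.

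Markers of several cell types moved with these groups, and their part in the changes above was not tested. Of all genes, 16.1% were called higher and 19.0% lower in model against normal. The shares were 18.0% and 19.9% in QJSB and 17.8% and 19.8% in leucogen against normal. In leucogen against model they were 11.6% and 11.5%. The 9 markers of plasmacytoid dendritic cells, which include the members Siglech and Bst2, summed to 275 to 339 CPM in normal, 96.0 to 191 in model, 76.6 to 123 in QJSB and 76.7 to 123 in leucogen libraries. Of the 9, 4 were lower in model than in normal marrow, and Siglech and Bst2 were not among these 4. In QJSB and leucogen against normal, 7 and 8 of the 9 were lower. Mean levels in normal marrow were 11.8 CPM for Siglech, 10.3 for Ccr9, 6.40 for Bst2, 2.72 for Klk1 and 1.61 for Cox6a2. The other listed genes, Tcf4, Pacsin1, Spib and Ly6d, made up most of the sum there, so the sum mostly follows those genes and not Siglech. Whether their RNA came from plasmacytoid dendritic cells alone was not tested. The 8 monocyte markers summed to 1511 to 1631 CPM in normal, 3521 to 6673 in model, 3780 to 4515 in QJSB and 2240 to 2823 in leucogen libraries, with 7 of 8 higher in model. In QJSB and leucogen against normal, 6 and 5 of the 8 were higher, and 1 was lower in each. The 8 late neutrophil markers summed to 9576 to 10134 CPM in normal, 1634 to 5550 in model, 2762 to 16114 in QJSB and 13106 to 16670 in leucogen libraries, and 5 of 8 were higher in leucogen than in model. Against normal, 4 of these 8 were lower in model, 0 were called in QJSB and 4 were higher in leucogen. The 8 resident macrophage markers summed to 529.8 to 599 CPM in normal and to at most 379 CPM in any treated library. The 8 B lineage markers summed to at least 1617 CPM in normal and at most 101 CPM in treated libraries, where up to 3 of them were at 0, and the 8 erythroid markers to at least 11638 CPM in normal and at most 737 CPM in treated libraries. Both lists were lower in all their genes in each treated group against normal. The 8 markers of T and NK cells summed to 63.8 to 150.2 CPM over all libraries. Of these 8, 7 were lower and 1 higher in model against normal, 6 and 1 in QJSB and 5 and 1 in leucogen. The 1 was Nkg7, a granule protein of cytotoxic cells, which rose from 20.1 ± 0.727 to 103 ± 16.5 CPM in model marrow (mean ± SD, n = 3), while Cd3d, a chain of the T cell receptor complex, fell from 16.5 ± 1.61 to 2.14 ± 0.805 CPM.

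**Figure D4:**
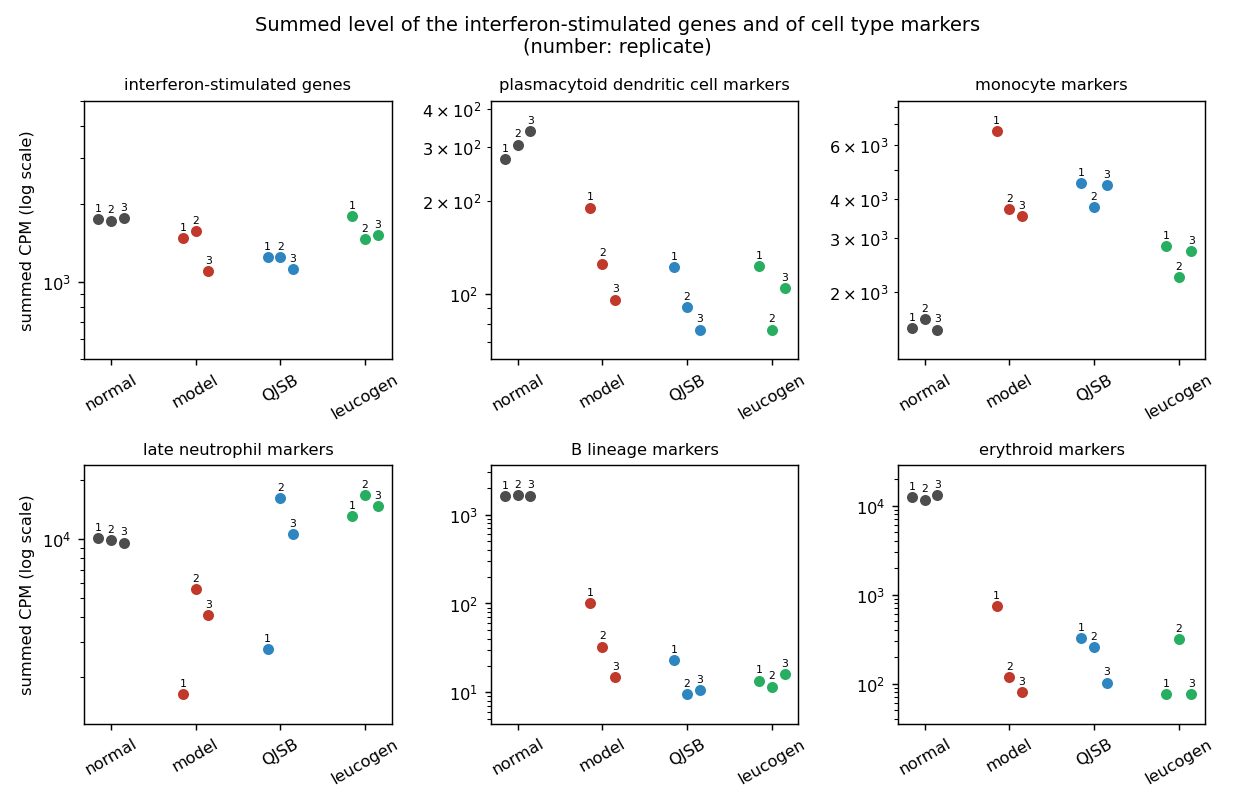
Summed CPM on a log axis, 1 point per library with its replicate number, for the 39 interferon-stimulated genes and for 5 marker lists. The sum of the 39 stays between 1101 and 1790 CPM in all libraries, while the B lineage and erythroid sums fall in the treated groups from at least 1617 and 11638 CPM to at most 101 and 737 CPM.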

How the data were processed

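Total RNA of femoral marrow was depleted of ribosomal RNA and made into strand-specific libraries, per the labels. The authors mapped reads with HISAT2 to mm10; the program that counted reads is not given in the sources used here. The authors deposited whole-number read counts per gene and library, without normalization, and FPKM values per gene (fragments scaled by transcript length and library total). All 12 libraries were used and 0 sample columns were left out.

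Counts were tested with edgeR 4.0.16 (TMM, filterByExpr, robust glmQLFit and glmQLFTest, R 4.3.3) over all genes for each of 6 pairs of groups, as log2 fold changes with SE = |log2 fold change| / square root of F. Calls needed a Benjamini-Hochberg adjusted p under 0.05 and a change over 1.5-fold. The members and lists were chosen with earlier results of these data known. Genes given in full were Isg15, Irf7, Stat2, Usp18 and Siglech and, per comparison, up to 6 called members in each direction by size of change, and of each pathway list up to 3; other called members were added as their roles were described. Library totals of 11172547 to 18545198 counts set the counting error, which the spread between mice exceeded (chi-square per degree of freedom 10.2 to 99.6).

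Deviations of same-numbered QJSB and model libraries from their group means had correlations of 0.426, 0.123 and 0.107 over 15310 genes. Differently numbered libraries were not compared, so these values do not establish a pairing. Alternatives were DESeq2 1.42.0, DESeq2 size factors, total counts, other count filters, all 12 libraries in one fit, the replicate block, limma-trend 3.58.1 on log2(FPKM + 0.1) and log2(FPKM + 1), and each library left out. The tests were checked on simulated counts. Promoters came from RefSeq (GRCm38.p6), and transcript identity from local alignment of the longest GENCODE M21 transcripts.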

Additional observations from a re-analysis of the deposited data

How the results depend on the processing

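The number of interferon-stimulated genes called in leucogen against QJSB, 4, moved to 7 with DESeq2, 7 with all 12 libraries in one fit and 9 by the cutoff of the study, and to between 1 and 11 when single libraries were left out. In leucogen against normal, 12 in place of 19 were called by limma-trend on log2(FPKM + 1), and in QJSB against model 2 in place of 0 by the cutoff of the study. Leaving out single libraries gave 11 to 19 calls in model against normal, 14 to 22 in QJSB against normal, 15 to 20 in leucogen against normal, 5 to 7 in leucogen against model and 0 in QJSB against model. With the replicate block, QJSB against model kept 0 calls (smallest adjusted p 0.227). For leucogen against QJSB, where the correlations of same-numbered libraries were 0.181, 0.134 and 0.0782, the replicate block gave 10. The block moved no other count by more than 1.5 times. No named gene turned its direction in a called result under any alternative; of the alternative values of named genes, 1569 kept their side of the threshold, 175 were no longer called and 2 became called. Calls were lost with other methods as well as with left-out libraries, and the losses by method are given above only in part. The cause of these moves was not tested. Total counts in place of TMM moved the median of all genes to 0.14 in model against normal, -0.22 in leucogen against model and -0.12 in leucogen against QJSB. Genes of few counts, such as Isg15 after cyclophosphamide, Oas1g, Oasl1 and Ifit3b, are limited by depth.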
